A study of Mus musculus with 21 samples.

Results

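The lungs described here were taken 12 h or 3 h after mice had aspirated bovine serum albumin (BSA), a foreign protein, in Hank's balanced salt solution (HBSS). They were chosen by the agent and the time in the array titles: 4 arrays of BSA lungs at 12 h and 3 arrays of BSA lungs at 3 h, 7 of the 21 arrays of the series. Each array measured RNA of the whole left lung of a female BALB/c mouse, aged 8 weeks, that had received 20 µg of BSA in 50 µl of HBSS by a single aspiration into the trachea. Set beside them were MACA lungs, given 20 µg of a crude antigen of the fungus Metarhizium anisopliae in 50 µl of HBSS (12 h, n = 3, and 3 h, n = 4), and vehicle lungs, given 50 µl of HBSS alone (12 h, n = 4, and 3 h, n = 3). All of these mice, the vehicle mice included, underwent the aspiration and received HBSS. No lung from before the aspiration was analysed here. The labels give the time since the aspiration but no time of day, so these cannot be told apart.

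Peripheral organs such as the lung hold a circadian clock. In it the transcription factors Arntl (Bmal1) and Clock, or Npas2 in place of Clock, switch on their own repressors, the Period and Cryptochrome genes, and the nuclear receptors Nr1d1 and Nr1d2 (Rev-erb alpha and beta), which in turn repress Arntl. The PAR bZIP factors Dbp, Tef and Hlf carry the rhythm to other genes. Glucocorticoids, which rise with the daily cycle and with stress, act through a nuclear receptor that switches on genes such as Fkbp5, Zbtb16 and Tsc22d3.

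Each array gave an intensity for 22626 probe sets, short groups of probes against 1 transcript, after control probe sets were left out, and the brightest probe set with 1 gene symbol stood for each of 12393 genes. Levels are given as log2(normalised intensity + 16), on which an intensity of 0 is 4.00, and the noise level is 5.83. The median deposited intensity of the 7 BSA arrays lay between 96.9 and 203, and precision depends on there being only 4 and 3 arrays. Normalised arrays correlated at 0.974 to 0.989 within BSA 12 h, at 0.986 to 0.989 within BSA 3 h and at 0.965 to 0.987 between the times. A technical split ran through the 12 h lungs. The ratio of the probe sets for both ends of a spiked control transcript was 1.62 and 1.66 on replicates 1 and 2, but 0.939 and 1.06 on replicates 3 and 4, against 1.63 to 1.74 on the 3 h arrays. Replicates 3 and 4 are called the low technical set below, and the others the high set. Markers of the labelled tissue were present at both times: the summed intensity of 11 alveolar type 2 genes was 75033 to 84544 at 12 h and 76271 to 79764 at 3 h.

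In BSA lungs 332 genes were higher and 186 were lower at 12 h than at 3 h (limma, Benjamini-Hochberg adjusted p under 0.05). These were 2.68% and 1.50% of the 12393 genes, 4.18% in all. The lower genes changed more: 56 of them differed by at least 2-fold, against 28 of the higher genes. Of the 518 genes, 511 had 12 h and 3 h arrays that did not overlap, which held for 2008 of all genes (16.2%). All 518 kept their direction when the 12 h arrays of the low set were left out with the other low-set arrays. For the 511 without overlap this was fixed in advance, since leaving out arrays cannot turn their sign. Only 78 of the 518 then passed the threshold. With the technical set as a term in the fit, 198 of the 518 passed. The median log2 fold of all genes was 0.03. Among all probe sets, 441 were higher (1.95%) and 330 lower (1.46%), 3.41% in all, and with each array scaled by its median in place of quantile normalization 326 were higher and 369 lower. These 771 calls became 184 without BSA 3 h replicate 2, 371 without BSA 3 h replicate 1, 365 and 428 without BSA 12 h replicates 3 and 4, and 1240 without BSA 12 h replicate 2. Of 80 genes called and described below, 39 were called with each of the 7 BSA arrays left out in turn.

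The repressor arm of the clock was lower at 12 h than at 3 h. Of 9 measured genes of this arm, 7 fell, with a median log2 fold of -1.74 over the 9, and 0 rose. Nr1d1, a receptor that represses Arntl, had log2 levels of 6.94, 6.19, 5.97 and 4.00 at 12 h, against 9.11, 9.29 and 9.74 at 3 h. Its 12 h arrays were spread widely and 1 of them lay at 0 intensity, yet all were below all 3 h arrays, and the log2 fold was -3.60 ± 0.56 (SE, adjusted p = 0.00268). For Nr1d2, its close relative, the levels were 9.37, 9.33, 8.16 and 8.18 at 12 h, against 11.46, 11.67 and 11.18 at 3 h, and the log2 fold was -2.68 ± 0.35 (SE, adjusted p = 0.000823). The 12 h arrays of the low set were the lower pair, and both pairs lay under the 3 h arrays.

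The Period genes encode the inhibitors of the Arntl and Clock pair. Per2 had levels of 5.75, 6.07, 5.58 and 5.86 at 12 h, against 9.15, 9.38 and 7.87 at 3 h. The 12 h arrays stood near the noise level and the 3 h arrays well above it, with a log2 fold of -2.98 ± 0.40 (SE, adjusted p = 0.00089). Per1 had levels of 7.77, 7.61, 6.89 and 7.89 at 12 h, against 9.54, 9.66 and 8.65 at 3 h, which did not overlap, and a log2 fold of -1.74 ± 0.36 (SE, adjusted p = 0.0162). Per3 had 5.91, 6.14, 6.29 and 6.52 at 12 h, against 8.30, 8.06 and 7.54 at 3 h, with a log2 fold of -1.75 ± 0.20 (SE, adjusted p = 0.000161). Of its 3 probe sets this was the only one past the threshold, and the other log2 folds were 0.10 and -0.52. Cry2, a partner of the Period proteins, had 8.12, 8.29, 8.10 and 8.20 at 12 h, against 9.44, 9.68 and 9.11 at 3 h, with a log2 fold of -1.23 ± 0.18 (SE, adjusted p = 0.00147). Bhlhe40 (Dec1), which competes for the same promoter sites as Clock, had 9.20, 8.91, 8.79 and 8.81 at 12 h, against 10.34, 10.19 and 10.12 at 3 h, with a log2 fold of -1.29 ± 0.17 (SE, adjusted p = 0.00091). Neither gene overlapped between the times. Cry1 and Bhlhe41 (Dec2) did not pass the test. The log2 fold of Cry1 was -0.19 (adjusted p = 0.67), and Bhlhe41 (adjusted p = 0.551) was under the noise level in every 3 h lung and on 2 of the 4 arrays at 12 h. The 7 calls of this arm became 6 without BSA 3 h replicate 1 or without replicate 2, where Per1 was lost, and 6 with the technical set as a term.

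Among the genes that carry the rhythm outward, 6 of 7 fell, with a median log2 fold of -1.34, and 0 rose. Dbp, the factor at the head of this group, showed the largest change of all genes called lower, at levels of 6.51, 6.33, 5.69 and 5.46 at 12 h, against 11.32, 11.27 and 10.77 at 3 h. All 3 lungs at 3 h were far above the noise level, while 2 of the 4 lungs at 12 h were under it. The log2 fold was -5.12 ± 0.29 (SE, adjusted p = 4.88e-08). Tef had 9.21, 9.40, 9.64 and 9.54 at 12 h, against 11.24, 11.38 and 10.87 at 3 h, and its arrays were close together at each time, with a log2 fold of -1.71 ± 0.13 (SE, adjusted p = 2.53e-06). Hlf had 5.04, 5.97, 6.52 and 6.36 at 12 h, against 8.46, 8.43 and 7.37 at 3 h, with a log2 fold of -2.12 ± 0.34 (SE, adjusted p = 0.00311). Tspan4, a membrane protein of the tetraspanin family placed in this list, had 9.77, 9.21, 9.61 and 9.51 at 12 h, against 11.01, 10.72 and 10.63 at 3 h, with a log2 fold of -1.27 ± 0.18 (SE, adjusted p = 0.00166). For the cell cycle kinase Wee1 the log2 fold was -1.33 ± 0.22 (SE, adjusted p = 0.00432), and for the deubiquitinase Usp2 it was -0.85 ± 0.16 (SE, adjusted p = 0.00963). Nampt, which makes a precursor of NAD, was at 9.61, 9.64, 9.49 and 9.19 at 12 h, against 9.89, 9.74 and 9.65 at 3 h. Its log2 fold of -0.28 did not pass the threshold (adjusted p = 0.148).

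Of 7 genes of the activator arm list 3 rose and 0 fell, with a median log2 fold of 0.24. Arntl had levels of 8.31, 8.54, 8.61 and 8.51 at 12 h, against 5.48, 5.57 and 6.41 at 3 h. At 3 h 2 of its 3 arrays were under the noise level, at 12 h all were well above it, and the log2 fold was 2.67 ± 0.31 (SE, adjusted p = 0.000203). Npas2, which can stand in for Clock, had 7.79, 8.34, 7.34 and 7.54 at 12 h, against 5.53, 5.51 and 6.17 at 3 h. Here too 2 arrays at 3 h were under the noise level, and the log2 fold was 2.02 ± 0.27 (SE, adjusted p = 0.00089). Nfil3 (E4bp4), a repressor that binds the same sites as Dbp, had 7.78, 7.60, 6.95 and 7.40 at 12 h, against 6.51, 6.50 and 6.70 at 3 h, with a log2 fold of 0.86 ± 0.21 (SE, adjusted p = 0.0353). It lost its call without any one of 6 of the 7 BSA arrays (adjusted p up to 0.144), and kept it only without BSA 12 h replicate 3. Clock itself was at 9.40, 9.56, 9.32 and 9.49 at 12 h, against 9.15, 9.15 and 9.33 at 3 h, with a log2 fold of 0.23 (adjusted p = 0.167), while another of its probe sets gave 0.56 (adjusted p = 0.0273). Rora had a log2 fold of -0.15 and did not pass (adjusted p = 0.582). Rorb and Arntl2 did not pass either and were under the noise level on all 7 BSA arrays, so no fold is given for them. Altogether 16 of 23 circadian genes changed, 13 lower and 3 higher, beside 4.18% of all genes.

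**Figure D1:**
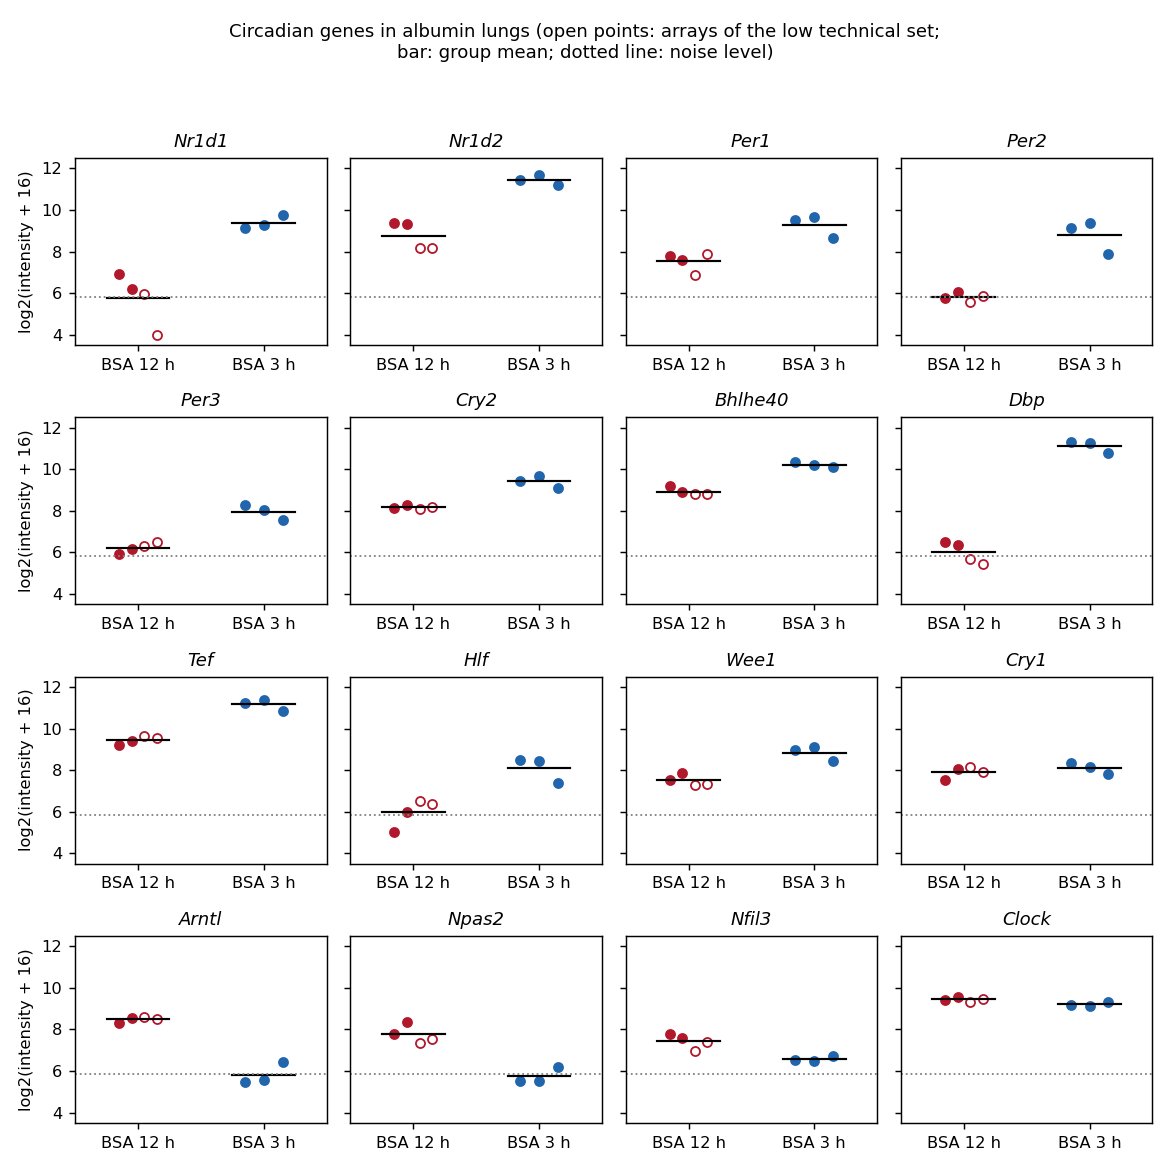
Level of 16 circadian genes on each BSA array, as log2(normalised intensity + 16), with 12 h on the left and 3 h on the right of each panel. Short bars are group means, open points are 12 h arrays of the low technical set, and the dotted line is the noise level of 5.83. Dbp, Nr1d1 and Per2 lie near the noise level at 12 h and above it at 3 h, Arntl and Npas2 do the reverse, and Cry1 and Clock overlap or lie close.

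The clock genes are known to be wired through short promoter sequences: the E-box CACGTG, bound by Arntl with Clock, the D-box, bound by Dbp, Tef, Hlf and Nfil3, and the ROR element, bound by Nr1d1, Nr1d2 and the Ror receptors. Stretches that hold a match follow here with the match in capitals, for genes of each arm, so that the direction of each can be read beside its sequence. They come from RefSeq windows of build GRCm38.p6 that run from 250 bases before to 50 bases after a gene's start, searched on both strands, and are written 5′ to 3′ on the gene's strand. Base +1 is the first base of the transcript.
The ROR element (AGGTCA preceded by AANT or TANT) stands in windows of Arntl (chr7:113207528-113207557, plus strand, match at +28 to +37) and Nfil3 (chr13:52981042-52981101, minus strand, match at -12 to -3, on the other strand), both of which rose.
Arntl: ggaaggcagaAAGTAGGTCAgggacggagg
Nfil3: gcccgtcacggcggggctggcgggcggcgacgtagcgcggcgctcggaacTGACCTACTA
The D-box (TTATGTAA or TTACGTAA) stands in a window of Per3 (chr4:151044806-151044880, minus strand, matches at -205 to -198 and -158 to -151), which fell.
Per3: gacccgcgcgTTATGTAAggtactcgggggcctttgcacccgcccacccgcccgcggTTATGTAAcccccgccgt
The E-box stands in windows of Per1 (chr11:69098756-69098815, plus strand, -166 to -161) and Tef (chr15:81811249-81811308, plus strand, -138 to -133), which fell, and of Cry1 (chr10:85185082-85185141, minus strand, -60 to -55), which did not pass the test.
Per1: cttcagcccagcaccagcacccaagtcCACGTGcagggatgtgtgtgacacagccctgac
Tef: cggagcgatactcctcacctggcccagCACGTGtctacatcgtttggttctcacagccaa
Cry1: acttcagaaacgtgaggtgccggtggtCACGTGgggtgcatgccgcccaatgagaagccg
Windows were at hand for 20 of the 23 measured circadian genes, and 5 of these hold an E-box in any window. Besides those printed they are Tspan4, which fell, and Bhlhe41, which did not pass, and another window of Tef holds an E-box too. The windows of Dbp, Nr1d1, Nr1d2, Hlf, Cry2, Npas2 and Usp2, all of which changed, hold no E-box, D-box or ROR element. Over the 9887 measured genes with a window, 10.8% hold an E-box, 0.931% a D-box and 0.253% a ROR element. Of genes called lower, 29 of 131 with a window hold an E-box (22.1%), and of genes called higher 31 of 264 do (11.7%). A match is a description of these letters and not a site of binding, and the difference between these shares was not tested.

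Genes known to be induced by glucocorticoids were lower at 12 h. Of 19 measured members 11 fell and 0 rose, all 19 had a negative log2 fold, and the median was -0.96. Among all 12393 genes 1.50% were lower, and 5235 had a negative and 6843 a positive log2 fold. The list was chosen with earlier results of these data known, so its counts describe and do not test. Zbtb16, a zinc finger transcription factor, had levels of 6.52, 7.0, 5.80 and 6.57 at 12 h, against 9.97, 9.84 and 9.50 at 3 h. Of its 12 h arrays 1 was under the noise level and its 3 h arrays all lay far above the 12 h arrays, with a log2 fold of -3.30 ± 0.45 (SE, adjusted p = 0.00102). A dimmer probe set of Zbtb16 gave -0.66 and did not pass. Fkbp5, a co-chaperone that damps the glucocorticoid receptor, had 7.10, 7.03, 7.13 and 7.15 at 12 h, against 9.34, 9.51 and 9.20 at 3 h. The groups were far apart, and the log2 fold was -2.25 ± 0.25 (SE, adjusted p = 0.000161). The kinase Map3k6 had 6.39, 6.09, 6.16 and 6.34 at 12 h, against 8.45, 8.33 and 8.39 at 3 h, as clearly apart, with a log2 fold of -2.15 ± 0.18 (SE, adjusted p = 6.01e-06). Pdk4, which blocks the entry of pyruvate into the citric acid cycle, had 7.28, 7.52, 5.89 and 6.41 at 12 h, against 8.89, 9.37 and 8.31 at 3 h, with a log2 fold of -2.08 ± 0.41 (SE, adjusted p = 0.0126).

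The other 7 members that fell were Mt2, Angptl4, Tsc22d3, Klf15, Sult1a1, Cebpd and Errfi1, with log2 folds from -1.82 to -0.69, and the last 5 were named after their values were seen. Tsc22d3 (Gilz) carries anti-inflammatory effects of glucocorticoids, and Errfi1 inhibits the EGF receptor. Hif3a and Ddit4 did not pass, at log2 folds of -0.96 and -0.55. This count depended on single arrays more than that of the clock genes: it was 5 without BSA 12 h replicate 3, 6 without replicate 4, 5 without BSA 3 h replicate 1 and 4 without replicate 2. It was 5 with the technical set as a term and 2 within the high set. Zbtb16, Fkbp5 and Map3k6 were called with each of the 7 arrays left out in turn, and Pdk4 in each case but that of BSA 3 h replicate 2. In the 300-base windows, 3 of 16 listed genes with a window hold the sequence AGAACA, part of the glucocorticoid response element, against 16.6% of all genes with a window.

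A few genes of metal and heat stress were lower as well. The metallothioneins Mt1 and Mt2, which bind zinc and copper, were the 2 of 18 metallothionein and Nrf2 target genes that fell. Mt1 had 10.97, 9.64, 9.84 and 10.04 at 12 h, against 11.55, 11.72 and 11.77 at 3 h, with a log2 fold of -1.56 ± 0.24 (SE, adjusted p = 0.00265). Mt2 had 11.29, 9.06, 8.87 and 9.02 at 12 h, against 11.43, 11.30 and 11.43 at 3 h, and its log2 fold was -1.82 ± 0.44 (SE, adjusted p = 0.0327). Replicate 1 at 12 h lay just under the 3 h arrays and the other 12 h arrays far below, and the call was lost without any one of the other 6 BSA arrays (adjusted p up to 0.113). Among 19 heat shock and chaperone genes 5 fell and 18 had a negative log2 fold. For all genes the share called lower was 1.50%, and 5235 of 12393 had a negative log2 fold. Hspb1 (Hsp25) had 12.12, 12.11, 11.98 and 11.67 at 12 h, against 12.92, 13.08 and 13.08 at 3 h, with a log2 fold of -1.06 ± 0.13 (SE, adjusted p = 0.000291), and Hspe1 (Hsp10), the co-chaperonin of mitochondria, had 10.93, 10.95, 10.42 and 10.57 at 12 h, against 11.60, 11.75 and 11.47 at 3 h, with a log2 fold of -0.89 ± 0.13 (SE, adjusted p = 0.00139). Neither overlapped between the times, and both were called with each array left out. Hsph1 and Hspa4l fell by 0.74 and 0.59 on the log2 scale, and Hsp90aa1, named after its values were seen, was the fifth. The 5 calls became 2 without BSA 3 h replicate 1 or 2, 3 without BSA 12 h replicate 3 or 4, and 2 with the technical set as a term.

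Of 20 genes of the Atf4 and unfolded protein response, 4 fell and 1 rose. Beside this count and those that follow, 1.50% of all genes were lower and 2.68% higher. Chac1 and Ddit3 (Chop), both induced by Atf4, fell by 1.08 and 1.03 on the log2 scale, and Herpud1 and Dnajb9, which serve protein quality control in the endoplasmic reticulum, by 0.69 and 0.63. The gene that rose was Pdia6, a folding enzyme named after its values were seen. None of these 4 kept its call without each single array (0 of the 4 were called without BSA 12 h replicate 3, BSA 12 h replicate 4, BSA 3 h replicate 1 or BSA 3 h replicate 2, and 1 without BSA 3 h replicate 3). Among 26 immediate early genes 2 fell: Maff, a small Maf factor, at a log2 fold of -1.24 ± 0.19 (SE, adjusted p = 0.00265), and Ccn2 (Ctgf) at -0.64 ± 0.16 (SE, adjusted p = 0.0342). Ccn2 lost its call without any one of 5 of the 7 BSA arrays (adjusted p up to 0.18). The count was 1 without BSA 12 h replicate 3 or 4 or BSA 3 h replicate 1 or 2, 4 without BSA 12 h replicate 2, and 1 with the technical set as a term. In the list of epithelial stress genes 3 of 15 fell, the alarmins Il33 (-1.08) and Tslp (-0.70) and the growth factor Tgfa (-0.48, log2 folds). Without BSA 3 h replicate 1 or 3 the count was 0, without BSA 3 h replicate 2 or BSA 12 h replicate 4 it was 1, and it was 0 with the technical set as a term. Of 18 PPAR target and fatty acid oxidation genes 4 fell: Pdk4 and Angptl4, named above, Acot1 (-0.62) and Cpt1a (-0.48), and the count was 2 without BSA 12 h replicate 2, 1 without BSA 12 h replicate 4 or BSA 3 h replicate 1, 0 without BSA 3 h replicate 2 and 1 with the technical set as a term.

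**Figure D2:**
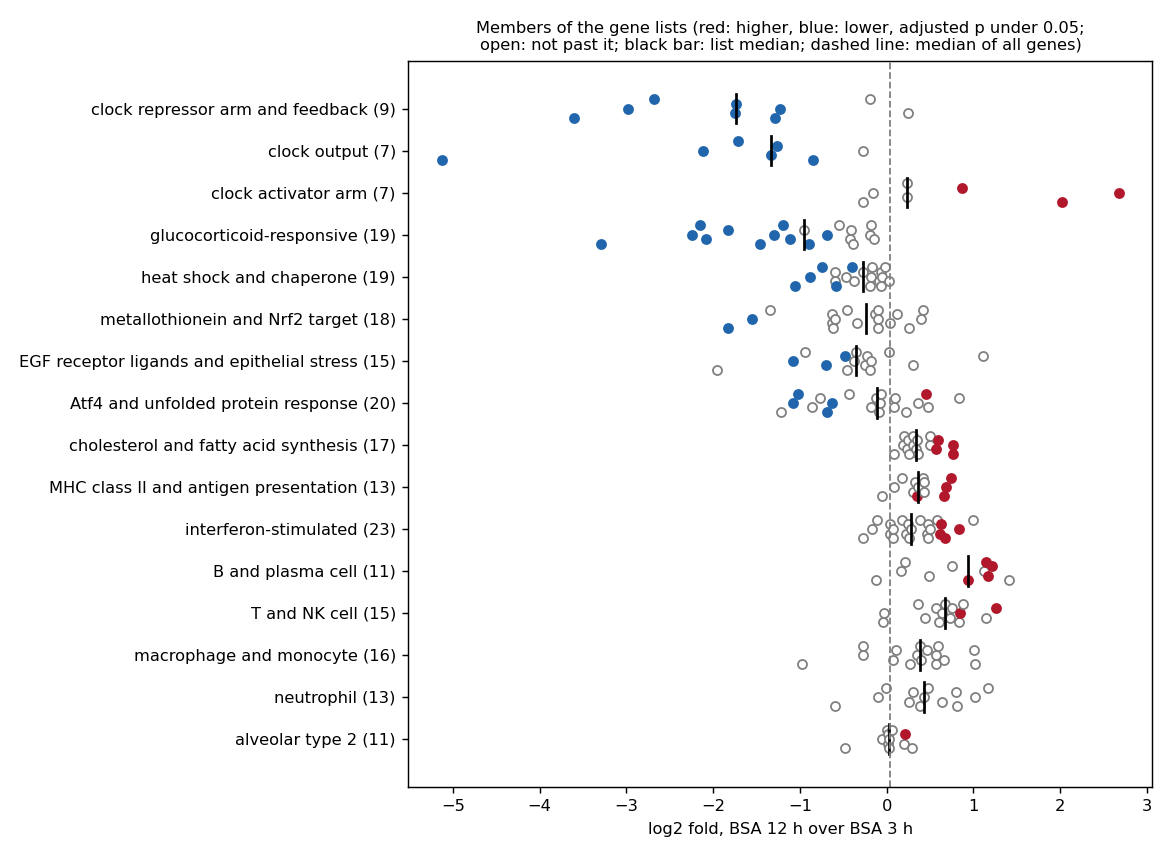
Log2 fold of BSA 12 h over BSA 3 h for each measured member of 16 of the 46 gene lists, with the number of members in brackets. Red and blue points passed adjusted p under 0.05 as higher and lower, open points did not, black bars are list medians and the dashed line is the median of all genes, 0.03. The clock repressor, clock output and glucocorticoid-responsive lists lie mostly left of the line, and the cholesterol, MHC and B cell lists lie mostly right of it.

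The highest log2 fold belonged to Spon2, a secreted matrix protein with a role in innate immunity, at levels of 8.97, 8.97, 9.10 and 9.11 at 12 h, against 5.78, 5.59 and 6.95 at 3 h. The groups lay far apart, and the log2 fold was 2.93 ± 0.29 (SE, adjusted p = 7.09e-05). Only 1 of the 3 arrays at 3 h was above the noise level for Spon2. Adm, the precursor of the vasodilator adrenomedullin, had 9.19, 8.98, 9.21 and 8.78 at 12 h, against 7.14, 6.86 and 7.76 at 3 h, again with no overlap, and a log2 fold of 1.79 ± 0.23 (SE, adjusted p = 0.000649). Ppp1r3c, which brings a phosphatase to glycogen, had 9.48, 9.74, 10.60 and 10.47 at 12 h, against 8.50, 8.62 and 8.58 at 3 h, with a log2 fold of 1.50 ± 0.27 (SE, adjusted p = 0.00698). Ckb, a creatine kinase, had 10.13, 10.17, 10.56 and 10.49 at 12 h, against 9.33, 8.89 and 9.23 at 3 h, with a log2 fold of 1.19 ± 0.14 (SE, adjusted p = 0.000224). The RNA-editing enzyme Apobec1 had 8.11, 7.88, 8.10 and 8.51 at 12 h, against 6.99, 6.63 and 7.20 at 3 h, with a log2 fold of 1.21 ± 0.16 (SE, adjusted p = 0.00091), and like Ckb it did not overlap between the times. Glipr2 and Ifitm6 rose by 1.35 and 1.41 on the log2 scale, the second with its call lost without BSA 3 h replicate 2. Ifitm6 was above the noise level on only 1 of the 3 arrays at 3 h. At the other end, Tbc1d24 was under the noise level in every 12 h lung (4.63, 4.00, 4.00 and 4.00) and at 6.27, 6.43 and 6.22 at 3 h, so it was at least 1.39-fold lower at 12 h (adjusted p = 0.00623).

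Several lymphocyte genes were higher at 12 h. Of 11 B and plasma cell genes 4 rose and 0 fell, with a median log2 fold of 0.93. Among 15 T and NK cell genes 2 rose and 0 fell, with a median of 0.68. The share of all genes called higher was 2.68%. In whole lung, more cells of a type and more RNA per cell cannot be told apart. Cd79a, part of the B cell receptor, had 8.23, 7.83, 8.39 and 8.65 at 12 h, against 7.11, 6.38 and 7.67 at 3 h, and Cd79b, its partner, had 8.76, 8.39, 9.18 and 9.16 at 12 h, against 7.99, 7.19 and 8.02 at 3 h. In both, BSA 3 h replicate 2 was the lowest array, and the log2 folds were 1.22 ± 0.31 (SE, adjusted p = 0.0438) and 1.14 ± 0.27 (SE, adjusted p = 0.0313). The B cell genes Ms4a1 (Cd20) and Cr2 rose by 0.93 and 1.17 on the log2 scale, and Cr2 was above the noise level on only 1 of the 3 arrays at 3 h. Gzma, a protease of killer cells, had 10.01, 9.68, 9.87 and 9.72 at 12 h, against 9.29, 8.01 and 8.38 at 3 h, with a log2 fold of 1.26 ± 0.29 (SE, adjusted p = 0.0282), and Thy1 rose by 0.84.

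Without BSA 3 h replicate 2, 0 genes of either list passed the threshold. The B cell count was also 0 without BSA 12 h replicate 3 or 4, 1 without BSA 12 h replicate 1 or BSA 3 h replicate 1 and 2 without BSA 3 h replicate 3. The T and NK cell count was 0 without BSA 12 h replicate 4 and 1 without BSA 12 h replicate 3, BSA 3 h replicate 1 or BSA 3 h replicate 3. With the technical set as a term 1 B cell and 0 T and NK cell genes passed. The summed intensity of the B cell list was 6983 to 9911 at 12 h and 6403 to 6824 at 3 h, and that of the T and NK cell list was 2332 to 3038 at 12 h and 972 to 1966 at 3 h. Thymus and lymph node genes, which would mark attached lymphoid tissue, summed to 553 to 1147 at 12 h and 433 to 519 at 3 h. Of the 7 measured, Rag1, Rag2, Dntt and Ptcra, genes of developing lymphocytes, and Ccl25 were under the noise level on all 7 BSA arrays. Cxcl13, a chemokine of B cell follicles, had 8.06, 7.97, 9.63 and 7.73 at 12 h, against 7.34, 7.78 and 7.72 at 3 h, highest on 12 h replicate 3, and Cd1d1, a lipid-presenting molecule, had 8.33, 8.56, 8.46 and 8.42 at 12 h, against 8.14, 8.23 and 7.80 at 3 h, with no overlap. Neither passed the test (adjusted p = 0.442 and 0.0936), and the part of attached lymphoid tissue in the lymphocyte result was not tested. Among single genes of lymphocytes, Ltb (lymphotoxin beta) had 8.64, 8.07, 8.30 and 8.81 at 12 h, against 6.88, 6.95 and 7.10 at 3 h, with a log2 fold of 1.48 ± 0.19 (SE, adjusted p = 0.000649), and it was called with each array left out. Fcrl1, a receptor-like protein of B cells, had 6.42, 5.88, 6.16 and 6.65 at 12 h, against 4.98, 4.57 and 5.02 at 3 h. It was under the noise level in every 3 h lung and at least 1.36-fold higher at 12 h (adjusted p = 0.003). Neutrophil genes summed to 3381 to 7952 at 12 h and 1725 to 4592 at 3 h, and macrophage genes to 7975 to 12476 at 12 h and 8781 to 9594 at 3 h. None of the 13 and 16 measured genes of these lists passed (0 of each), and 1 and 6 had an unadjusted p under 0.05, as did 22.5% of all genes.

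Antigen presentation and interferon genes rose in part. Among 13 genes of MHC class II and antigen presentation 4 rose and 0 fell, where 2.68% of all genes were higher and 1.50% lower. Those past the threshold were H2-K1, a class I chain, the immunoproteasome subunits Psmb8 and Psmb9 and the peptide transporter Tap2. Psmb9 had 9.81, 9.70, 10.30 and 10.07 at 12 h, against 9.46, 9.08 and 9.30 at 3 h, with no overlap and a log2 fold of 0.69 ± 0.12 (SE, adjusted p = 0.00623), a call lost without BSA 3 h replicate 2. The other 3 had log2 folds of 0.35, 0.66 and 0.74. H2-DMa, which loads peptides onto class II molecules, and Ciita, the activator of class II genes, had log2 folds of 0.42 and 0.43 and did not pass (adjusted p = 0.0796 and 0.075), and whether class I and class II genes differed was not tested. Of 23 interferon-stimulated genes 4 rose and 0 fell, at log2 folds of 0.67 for the transcription factor Irf7, 0.61 for the RNA sensor Oas1a, 0.62 for the feedback protease Usp18 and 0.83 for the GTPase Ifi47. The median log2 folds of these lists were 0.36 and 0.28. Without BSA 3 h replicate 2 the counts were 0 and 1, without BSA 12 h replicate 3 they were 1 and 0, without BSA 12 h replicate 4 they were 2 and 0, without BSA 3 h replicate 1 they were 2 and 1 and without BSA 3 h replicate 3 they were 3 and 1. With the technical set as a term they were 1 and 0. The lymphocyte genes moved with these lists, and their part in this result was not tested.

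Of 17 measured genes of cholesterol and fatty acid synthesis 4 rose and 0 fell. All 17 had a positive log2 fold, with a median of 0.33. For all genes the share called higher was 2.68%, and 6843 of 12393 had a positive log2 fold. Hmgcs1, an early enzyme of cholesterol synthesis, had 11.57, 11.50, 11.55 and 11.71 at 12 h, against 10.99, 10.81 and 11.23 at 3 h, with a log2 fold of 0.57 ± 0.09 (SE, adjusted p = 0.00315), and was called with each array left out. Fdps and Fdft1, later steps of the same path, rose by 0.77 and 0.59 on the log2 scale, and Scd1, which desaturates fatty acids, had 13.02, 13.01, 13.13 and 12.84 at 12 h, against 12.45, 11.68 and 12.59 at 3 h, with a log2 fold of 0.76 ± 0.16 (SE, adjusted p = 0.0162). The 4 calls became 2 without BSA 12 h replicate 3 or BSA 3 h replicate 2, and 1 with the technical set as a term. Within the surfactant lipid list Scd1 was the single call of 9.

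Elsewhere single genes changed, as did 4.18% of all genes. Pfkfb3, which drives glycolysis, fell at a log2 fold of -1.41 ± 0.24 (SE, adjusted p = 0.00491), in a hypoxia and glycolysis list where Adm and Aldoa rose (Aldoa by 0.33). In the matrix list the collagen cross-linking enzyme Lox (-1.17) and Thbs1 (-0.86) fell and elastin, Eln, rose (0.73, log2 folds). The chemokines Cxcl12 and Cxcl15 rose by 0.83 and 0.21 on the log2 scale, the second being made by alveolar type 2 cells. Of these genes Pfkfb3, Lox and Cxcl12 were called with each BSA array left out, while Aldoa, Thbs1, Eln and Cxcl15 were not. Bcl3, of the NF-kB feedback list, fell at -1.41 ± 0.27 (SE, adjusted p = 0.012), a call lost without BSA 3 h replicate 2. Tcap, a protein of the sarcomere, fell at -1.02 ± 0.23 (SE, adjusted p = 0.0226) with its call lost without BSA 3 h replicate 2 or 3, and was the single call of 16 cardiac and skeletal muscle genes, whose summed intensity was 13470 to 19042 at 12 h and 12273 to 17916 at 3 h. In 22 of the 46 lists, with 307 measured members in all, 0 genes passed the threshold (limma), and 75 of these genes had an unadjusted p under 0.05, a share near the 22.5% of all genes.

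The change between the times in BSA lungs was set against that in vehicle lungs and in MACA lungs, which share no array with them. In HBSS lungs 3.82% of genes were higher and 3.58% lower at 12 h, and in MACA lungs 5.24% were higher and 4.94% lower. Of the 518 genes called in BSA lungs, 81.7% had the same sign in HBSS lungs and 87.5% in MACA lungs. They were picked by their BSA change, and their median absolute log2 fold was 0.61 in BSA, 0.25 in HBSS and 0.35 in MACA lungs. Over all 12393 genes the log2 folds in BSA lungs correlated at 0.324 with HBSS and 0.335 with MACA lungs (Pearson). The BSA and HBSS changes both passed the threshold in the same direction for 140 genes, 27% of the BSA calls and 15.3% of the 917 HBSS calls. With MACA this held for 225 genes, 43.4% of the BSA calls and 17.8% of the 1261 MACA calls. In all 3 agents 90 genes passed in 1 direction, 32 higher and 58 lower. The circadian genes were among those that moved in each agent: 16 of 23 passed in BSA lungs, 17 in HBSS lungs and 15 in MACA lungs. Of all genes 4.18% passed in BSA lungs, and the shares for HBSS and MACA lungs are given above. The circadian lists were chosen with earlier results of these data known, so these counts describe and do not test. Dbp had log2 folds of -5.12 in BSA and -5.22 in HBSS lungs, and in MACA lungs, where its 12 h arrays were under the noise level, it was at least 28.4-fold lower at 12 h. Arntl had log2 folds of 2.67 in BSA and 2.12 in MACA lungs, and in HBSS lungs, where its 3 h arrays were under the noise level, it was at least 7.39-fold higher at 12 h. Spon2, the highest gene, had 2.93 in BSA, 2.83 in MACA and 3.17 in HBSS lungs. The interaction test (limma, adjusted) passed for 0 of the 23 circadian genes, both against HBSS and against MACA lungs. Of all genes it passed for 0.194% as higher and 0.266% as lower against HBSS. Against MACA the shares were 0.371% and 0.137%. With so few passing, 0 of 23 does not show that the changes were equal. At an unadjusted p under 0.05 were 2 and 4 of the 23, beside 3713 and 3872 of 22626 probe sets. With the technical set as a term 1 and 0 of the 23 passed, beside 2180 and 1 of the probe sets.

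**Figure D3:**
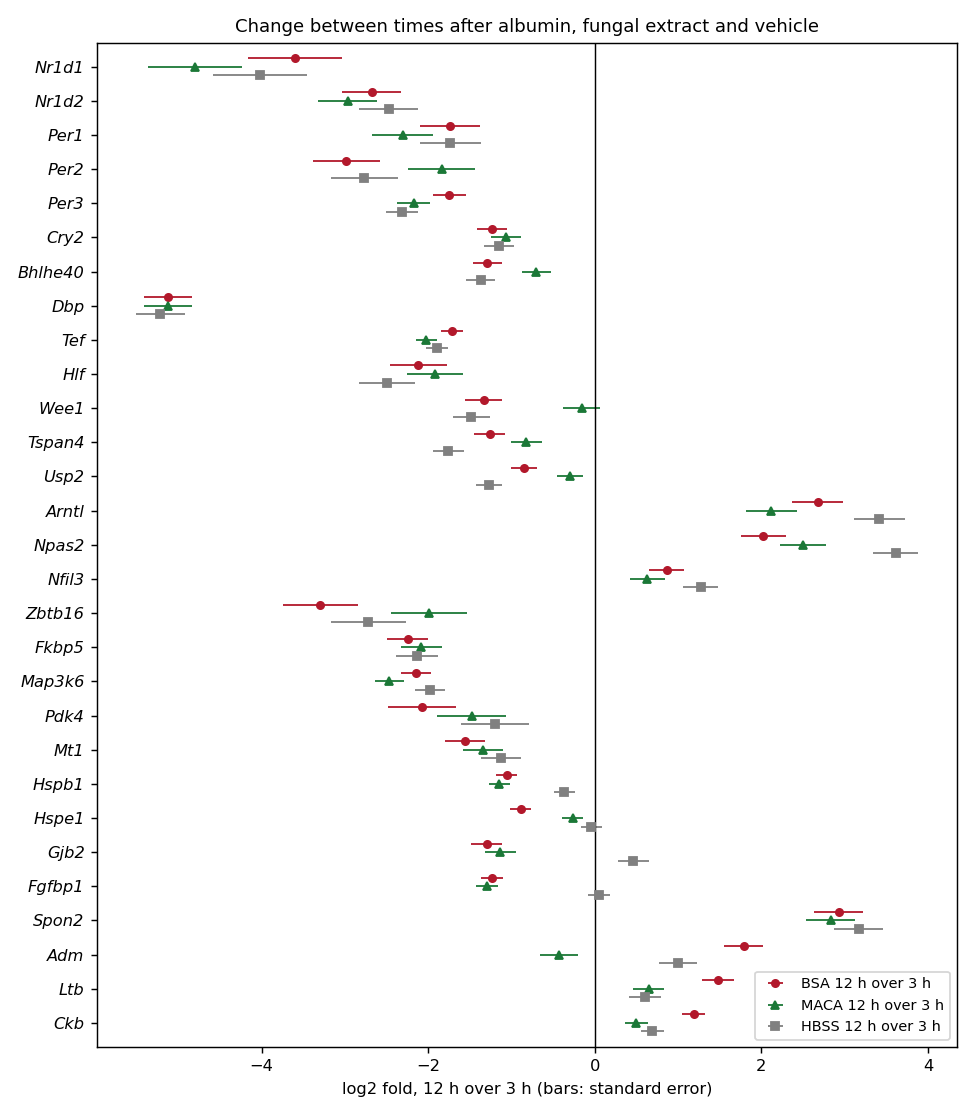
Log2 fold of 12 h over 3 h in BSA (red circles), MACA (green triangles) and HBSS lungs (grey squares), with standard errors of the limma fit. The circadian and glucocorticoid-responsive genes lie on the same side of 0 for all 3 agents, while Gjb2, Fgfbp1 and Hspe1 lie near or right of 0 for HBSS and Adm lies left of 0 for MACA. Where every array of 1 group was under the noise level (Nr1d1, Per3, Dbp and Hlf for MACA, Arntl for HBSS, Npas2 for both) the point is a fitted value and not a measured size.

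Tests of the difference itself set 24 genes higher and 33 lower in the BSA change than in the HBSS change, 0.194% and 0.266% of all genes. Gjb2 (connexin 26), a gap junction protein, was at 7.14, 7.10, 6.90 and 6.78 at 12 h, against 8.21, 8.28 and 8.34 at 3 h in BSA lungs, with means of 6.98 at 12 h and 6.52 at 3 h in HBSS lungs. The log2 fold was -1.30 ± 0.19 (SE, adjusted p = 0.00145) after BSA and 0.46 (adjusted p = 0.155) after HBSS, a difference of the log2 folds of -1.76 ± 0.26 (SE, adjusted p = 0.0138). Fgfbp1, which releases fibroblast growth factors from the matrix, was at 9.18, 9.02, 9.11 and 8.82 at 12 h, against 10.42, 10.12 and 10.25 at 3 h in BSA lungs. Its log2 fold was -1.24 ± 0.13 (SE, adjusted p = 0.000121) after BSA and 0.05 (adjusted p = 0.894) after HBSS, a difference of -1.29 ± 0.19 (SE, adjusted p = 0.0138). Mpzl2, an adhesion protein of epithelia, had a difference of -1.22 ± 0.26 (SE, adjusted p = 0.0479), and the chaperone Hspe1, already named, one of -0.84 ± 0.18 (SE, adjusted p = 0.0479).

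Mboat1, an acyltransferase of phospholipids, had a difference of -1.47. On the higher side stood Metap1d (1.06), Pld4, Fes (0.85) and Pld3 (0.82). Spire2, which nucleates actin, and Krt83, a keratin, passed the test as lower and higher, but Spire2 was under the noise level in every HBSS 3 h lung, and Krt83 in every BSA 3 h and HBSS 12 h lung and on 3 of the 4 BSA 12 h arrays, so no size is given for them. At least 1 of the 4 groups was under the noise level on every array in 3 of the 57 genes. Pld4, a lysosomal nuclease of immune cells, was at 8.45, 8.32, 8.20 and 8.13 at 12 h, against 7.69, 7.11 and 7.52 at 3 h in BSA lungs, where it rose with a log2 fold of 0.83 ± 0.13 (SE, adjusted p = 0.00279). Its log2 fold was -0.23 in HBSS lungs, a difference of 1.06 ± 0.18 (SE, adjusted p = 0.0254). All 57 genes kept their sign and passed again with the technical set as a term. That fit raised the calls of this difference from 114 to 2180 probe sets, so passing again in it is no independent support. All 4 HBSS 12 h arrays were of the low set and all HBSS 3 h arrays of the high set, so in HBSS lungs the set and the time cannot be told apart, and that fit takes the effect of the set from the BSA and MACA arrays alone. In probe sets, the 114 calls of this difference were 28 without BSA 3 h replicate 1 or 2, 39 without BSA 12 h replicate 3, 71 without BSA 12 h replicate 1 and 393 without BSA 12 h replicate 2.

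Against MACA lungs, 46 genes were higher and 17 were lower in the BSA change, 0.371% and 0.137% of all genes. Adm rose in BSA lungs (1.79) and had a log2 fold of -0.43 in MACA lungs, where its mean was already 9.99 at 3 h, and the difference was 2.22 ± 0.33 (SE, adjusted p = 0.0159). Cd83, a marker of activated dendritic cells, was at 7.84, 7.57, 7.77 and 7.64 at 12 h, against 8.02, 7.74 and 8.21 at 3 h in BSA lungs. Its log2 fold there was -0.28 (adjusted p = 0.51), and in MACA lungs it was -2.37 (adjusted p = 1.74e-05), a difference of 2.08 ± 0.32 (SE, adjusted p = 0.0173). Tcap fell further in MACA lungs (-2.93), with a difference of 1.91 ± 0.32 (SE, adjusted p = 0.0297). Scara5 had a difference of 1.86, and the NF-kB inhibitor Tnfaip3 (1.69) and Ifi47 (1.32) were past the threshold on the same side. On the lower side were Hpx (-1.80), Rpl27a (-1.53) and Hyou1 (-1.24). In 8 of the 63 genes at least 1 of the 4 groups was under the noise level on every array, and no size is given for those among them that the naming rule picked: Ltc4s was under it in every MACA 12 h lung, Rnase2a in every BSA and MACA 3 h lung, and Scn11a on all 21 arrays. All 63 genes kept their sign with the technical set as a term, but 1 passed the threshold then. In probe sets, the 106 calls were 9 to 29 without BSA 12 h replicate 3 or 4 or without any 1 of the BSA 3 h arrays, 250 without BSA 12 h replicate 1 and 162 without BSA 12 h replicate 2.

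**Figure D4:**
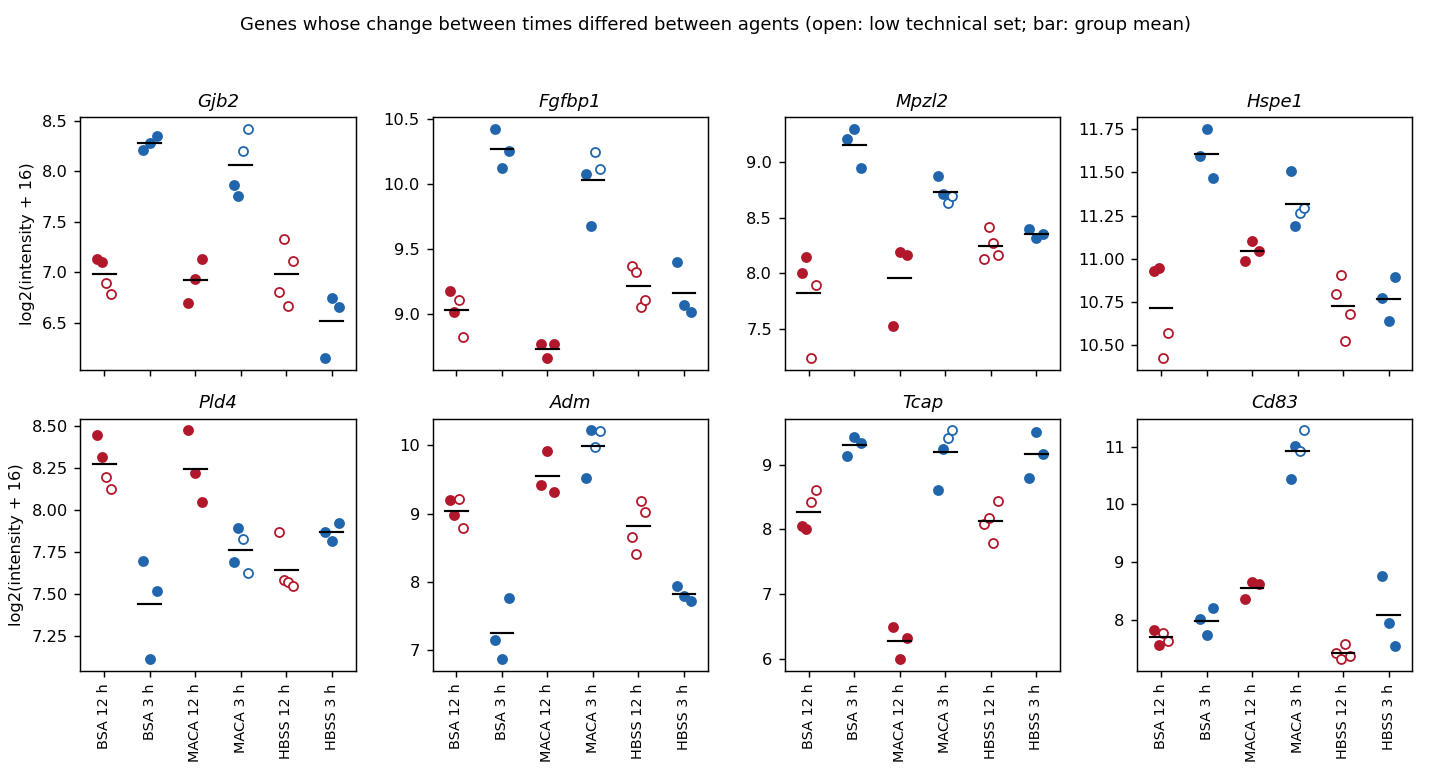
Level of 8 genes on all 21 arrays by agent and time, as log2(normalised intensity + 16), with 12 h left of 3 h for each agent. Bars are group means and open points are arrays of the low technical set. Gjb2, Fgfbp1, Mpzl2 and Hspe1 are high at 3 h after BSA and MACA but not after HBSS, and Adm and Cd83 are high at 3 h after MACA.

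The 4 BSA lungs at 12 h differed among themselves. Called genes such as Nr1d2, given above, and Chac1 (8.50, 8.48, 7.84 and 7.43) were higher on replicates 1 and 2 than on replicates 3 and 4. The genes from here on are list members that did not pass. Replicate 1 stood apart in inflammatory genes: Saa3, an acute phase protein, was at 11.82, 8.12, 9.05 and 9.71 at 12 h, against 8.14, 8.05 and 8.27 at 3 h. The neutrophil protein S100a9 was at 11.77, 10.27, 10.19 and 10.34 at 12 h, against 9.26, 8.50 and 10.66 at 3 h, and the protease inhibitor Timp1 at 11.10, 8.79, 8.53 and 8.88 at 12 h, against 8.40, 8.28 and 8.61 at 3 h. On each of these, replicate 1 was the highest of the 7 arrays. Replicates 3 and 4 were low in another group of genes. The chemokine Ccl20 was at 8.45, 7.70, 4.65 and 4.00 at 12 h, against 8.53, 8.63 and 9.42 at 3 h, Sfn, a 14-3-3 protein of epithelia, at 8.25, 7.78, 5.28 and 4.84 at 12 h, against 8.42, 8.26 and 8.79 at 3 h, and Psat1, an enzyme of serine synthesis, at 9.22, 9.23, 6.79 and 7.28 at 12 h, against 9.35, 9.43 and 9.28 at 3 h. In these genes replicates 1 and 2 lay closer to the 3 h arrays than to replicates 3 and 4. Replicates 3 and 4 are the arrays of the low technical set, and whether the set bears on these levels was not tested. On the HBSS 12 h arrays, all 4 of that set, Sfn was at 8.10, 7.74, 4.98 and 5.73. Psat1 was at 9.12, 9.44, 8.30 and 8.14 on them. Cyp2f2, a cytochrome of club cells, was at 11.47, 11.91, 13.46 and 13.20 at 12 h, against 12.90, 13.06 and 12.91 at 3 h, with replicates 1 and 2 low, as in HBSS 12 h lungs (12.35, 12.56, 13.27 and 13.42), and the club cell list summed to 34266 to 56745 at 12 h and 50080 to 55261 at 3 h. None of the 7 genes from Saa3 to Cyp2f2 passed the test between the times (adjusted p from 0.108 to 0.528), and what sets these lungs apart was not tested.

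**Figure D5:**
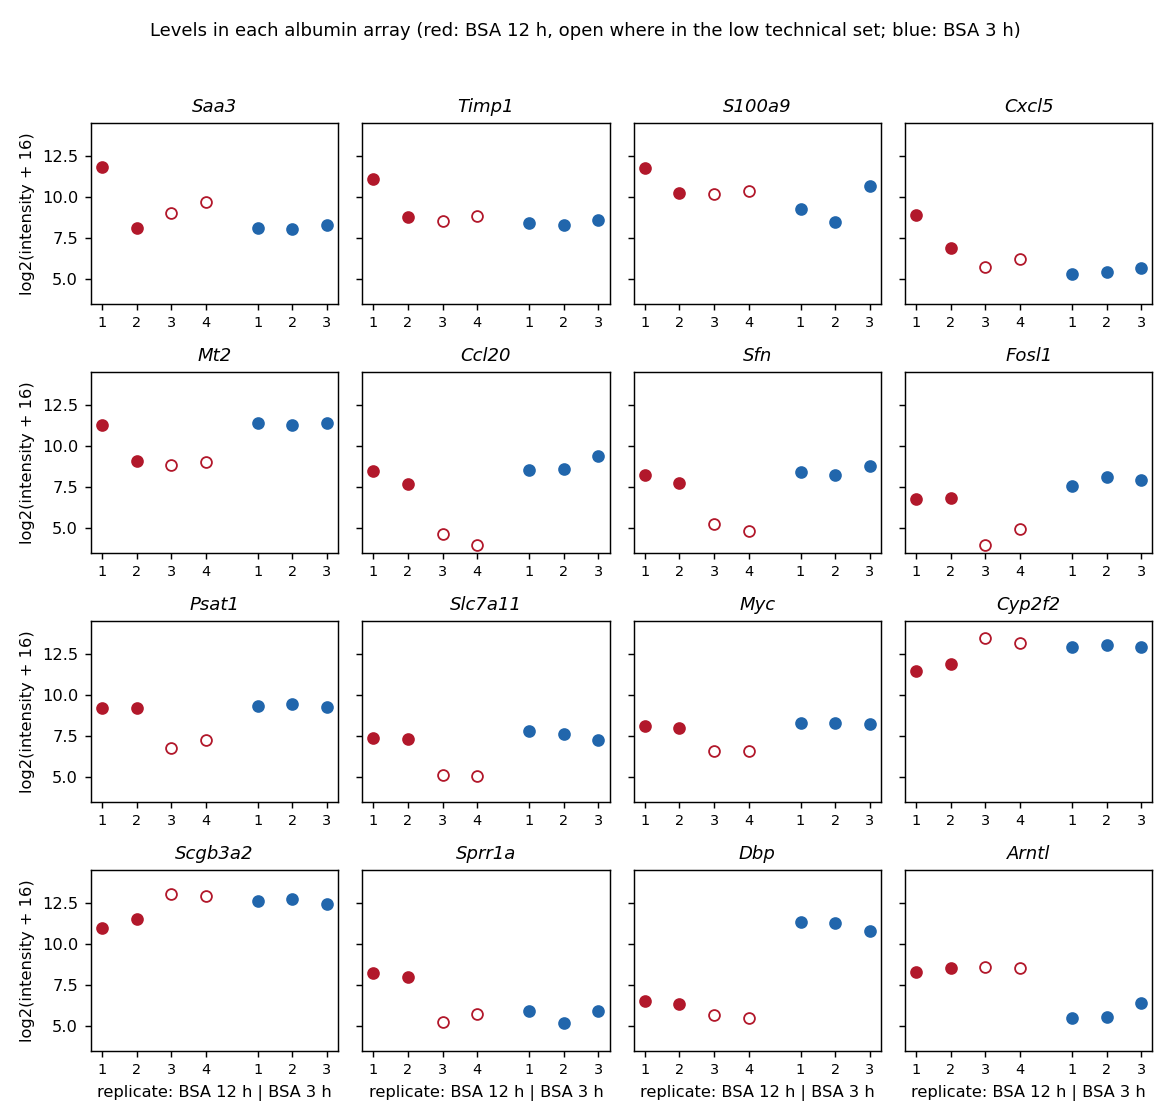
Level of 16 genes on each of the 7 BSA arrays, as log2(normalised intensity + 16), by replicate number, with 12 h (red, open where in the low technical set) left of 3 h (blue). Replicate 1 at 12 h is high in Saa3, Timp1, S100a9 and Cxcl5, replicates 3 and 4 are low in Ccl20, Sfn, Fosl1 and Psat1, and Dbp and Arntl separate the times on every array.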

How the data were processed

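Total RNA of snap-frozen left lungs was made into biotin-labelled cRNA and hybridised, per the labels' protocols. The authors deposited 1 linear intensity per probe set and array, with 9.90% to 10.7% of values below 0 on the BSA arrays. The sources used here do not give the software, the scaling or the build. Array medians of all 21 arrays differed by up to 3.08 times.

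Intensities of 22626 probe sets (64 controls left out) were quantile normalized, set to 0 where below 0, and taken as log2(value + 16), on which folds of dim genes are understated. The noise level, intensity 40.9, is the 95th percentile of the negative values, taken without sign. A gene called between the times and under it on every array of 1 group is given as at least N-fold, and no size is given where both groups, or a group of a difference between agents, lie under it. Of the probe sets, 20380 had 1 symbol in the platform annotation, 691 several and 1555 none, and 20351 matched the reference gene table of GRCm38.p6. limma (3.58.1, R 4.3.3) fitted 6 group means to 21 arrays (15 residual degrees of freedom), with 2-sided tests adjusted by Benjamini-Hochberg over all probe sets. No 2 arrays held identical values (0 pairs). The labels call arrays biological replicates and do not say whether RNA was pooled.

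The members and the 46 gene lists (649 measured genes) were chosen with earlier results of these data known. Named are the 15 highest and 15 lowest genes past the threshold without overlap and above the noise level in a group, the circadian genes, up to 4 called and 2 uncalled members of each list, and the 5 highest and 5 lowest of each interaction. Alternatives were other scalings, pseudocounts, filters, array subsets, the technical set, a replicate block, an intensity trend and 1 probe set per gene, and leaving out the 12 h arrays of either technical set was added after seeing the data. The scripts were tested on simulated data. Figures used python 3.11.15 and matplotlib 3.10.9.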

Additional observations from a re-analysis of the deposited data

Results flagged for a closer look

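The change from 3 h to 12 h differed between BSA and HBSS lungs, by the limma interaction test, for 57 genes, among them the 5 highest and 5 lowest and Hspe1 of the heat shock list. The differences of the log2 folds (BSA minus HBSS) were 1.43 for Krt83, 1.06 for Metap1d, 1.06 for Pld4, 0.85 for Fes and 0.82 for Pld3. They were -1.90 for Spire2, -1.76 for Gjb2, -1.47 for Mboat1, -1.29 for Fgfbp1, -1.22 for Mpzl2 and -0.84 for Hspe1. Those of Krt83 and Spire2 are fitted values and not measured sizes, since all BSA 3 h and HBSS 12 h arrays of Krt83 and all HBSS 3 h arrays of Spire2 were under the noise level.

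Between BSA and MACA lungs the differences (BSA minus MACA) were 2.22 for Adm, 2.08 for Cd83, 1.92 for Ltc4s, 1.91 for Tcap, 1.86 for Scara5, 1.69 for Tnfaip3 and 1.32 for Ifi47. On the lower side they were -2.16 for Rnase2a, -1.80 for Hpx, -1.53 for Rpl27a, -1.35 for Scn11a and -1.24 for Hyou1. Those of Ltc4s, Rnase2a and Scn11a are likewise only fitted values: Ltc4s was under the noise level on all MACA 12 h arrays, Rnase2a on all BSA and MACA 3 h arrays and Scn11a on all 21 arrays.

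Single arrays stood far from the other 12 h BSA arrays in 6 of the 114 genes described. This was judged by the gap to the nearest array as a share of the group's range. Replicate 1 was high in Mt2 (share 0.922), S100a9 (0.907), Thbs1 (0.874) and Timp1 (0.865). In Tbc1d24 replicate 1 (share 1, level 4.63) and in Arntl2 replicate 4 (share 1, level 4.94) were the only arrays above 0 intensity, and both values are under the noise level. Chance alone gives such a gap in about 1 of 20 groups tested, and 6 of 114 is near that share.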

How the results depend on the processing

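In probe sets, 771 passed in BSA 12 h against BSA 3 h, 114 in the difference from HBSS and 106 in the difference from MACA. Without scaling the counts were 31, 0 and 0 (limma, with 1761, 7174 and 1116 at an unadjusted p under 0.05). Median scaling gave 695, 30 and 42, and pseudocount 64 gave 891, 200 and 141. With the technical set as a term they were 368, 2180 and 1. A fit of only the 7 BSA arrays called 23, and the high technical set alone 168. Leaving out only the 12 h arrays of the low set gave 166, and leaving out only those of the high set 3253. Leaving out 1 BSA array gave 184 to 1240, 28 to 393 and 9 to 250. Same-numbered arrays of BSA 12 h and BSA 3 h had deviations that correlated at 0.002, 0.0448 and 0.125. Between BSA 12 h and HBSS 12 h the range was 0.0724 to 0.342, and between BSA 12 h and MACA 3 h 0.0964 to 0.392. In 0 of the 15 pairs of groups were all over 0.1, so the numbers were not taken to pair the arrays. That rule cannot show that the arrays were unpaired. Replicates 2, 3 and 4 of BSA 12 h correlated best with the same number of HBSS 12 h, and replicates 1, 2 and 3 with that of HBSS 3 h. The replicate block gave 754, 177 and 21. Pseudocount 4, the noise filter and the intensity trend left each of the 3 counts within 1.5 times, as did the fits of 14 arrays and of 1 probe set per gene, which were run for the first count only. What makes the counts differ was not tested.

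Of 80 genes called and described, 0 changed sign in any of 21 alternatives, and 5 (Arntl, Dbp, Tef, Map3k6 and Fkbp5) were called in all of them. Where a gene's 12 h and 3 h arrays do not overlap, leaving out arrays could not change its sign. Signs turned in genes that did not pass, of which Rnase2a, Rorb and Arntl2 were under the noise level on all 7 BSA arrays. The log2 fold of Rnase2a was 0.10 with the technical set as a term, 0.015 with the replicate block, 0.028 with the 12 h arrays of the low set alone and -0.19 to 0.27 with 1 array left out. With 1 array left out Hpx ran from -0.13 to 0.23, Rorb from -0.56 to 0.040 and Arntl2 from 0.00 to 0.31. In the high set, and likewise with the 12 h arrays of the high set alone, Bhlhe41 was at -0.080, Hyou1 at 0.026 and Arntl2 at 0.00. With the 12 h arrays of the low set alone Hpx was at -0.077 and Cyp2f2 at 0.37. Signal over background limits the genes near the noise level: 12 of the 518 called genes were under it on every array of both groups and 17 on every array of 1 group.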
